A study of Homo sapiens with 11 samples.

Results

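Where 2 marks of silent chromatin, H3K9me3 and H4K20me3, lie relative to each other was compared in MDA-MB-231, a cell line from a human breast cancer of the triple-negative kind. The comparison used the intervals of enriched chromatin deposited for both marks in cells with normal mdig protein (WT), on chromosomes 1 to 22 and X. It held all 45805 intervals of H3K9me3 and all 8539 intervals of H4K20me3 in WT cells, 54344 of the 229591 intervals in the 10 lists of the series. The WT lists for H3K4me3, for H3K36me3 and for mdig (pulled down with an antibody named MINA), and both heterochromatin lists of cells without mdig (KO), served as references. Per the labels' protocols, WT and KO cells both came out of CRISPR-Cas9 work and were grown with blasticidin. Chromatin was pulled down with an H3K9me3 antibody from Active Motif and an H4K20me3 antibody from Abcam. Whether the WT cells or the KO cells were a single clone is not stated. Each antibody was used on 1 library per genotype, so the values describe these libraries and no test was run.

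H3K9me3 is laid down on histone H3 by methyltransferases such as SUV39H1, SUV39H2 and SETDB1, and it is bound by the HP1 proteins. HP1 is known to bring in the enzymes SUV420H1 and SUV420H2 (also KMT5B and KMT5C), which add the methyl groups of H4K20me3. Both marks are known from pericentromeric repeats, the ends of chromosomes, silenced transposable elements and the clusters of KRAB zinc finger genes. H3K4me3 marks active promoters and H3K36me3 the bodies of transcribed genes.

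The 2 lists were of very different size. H3K9me3 covered 254.7 Mb, which was 8.65% of the span between the first and last interval of each chromosome, in intervals with a median width of 4.0 kb (0.2 to 226.6 kb). H4K20me3 covered 67.2 Mb, or 2.28% of the span, with a median width of 6.0 kb (0.4 to 78.2 kb). The file carries no height or score and the read depth is unknown. Interval lists grow with depth, so the part that depth or antibody has in the different sizes was not tested. The span includes unassembled and repetitive sequence where reads may not map, and repeats that the genome build leaves out were not seen.

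Most H4K20me3 intervals overlapped H3K9me3, while most H3K9me3 intervals had no H4K20me3. Of the 8539 H4K20me3 intervals 5555, or 65.1% (95% Wilson interval 64.0% to 66.1%), shared at least 1 bp with H3K9me3. Of the 45805 H3K9me3 intervals 5308, or 11.6% (11.3% to 11.9%), shared at least 1 bp with H4K20me3. These 2 shares are the background for the classes below. The Wilson intervals cover counting error only, and neighbouring intervals are not independent. By length, 34.7 Mb carried both marks, which was 51.6% of the H4K20me3 length and 13.6% of the H3K9me3 length. Outside H3K9me3, H4K20me3 covered 1.21% of the span, so its density was 11.3 times higher on H3K9me3. The references were thinner on H3K9me3 than elsewhere. H3K4me3 covered 0.985% of the H3K9me3 length against 4.39% of the rest of the span, H3K36me3 2.91% against 11.9%, and MINA 1.94% against 4.26%.

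Wide H3K9me3 intervals carried H4K20me3 more often than narrow ones. Of the 5781 H3K9me3 intervals under 2 kb, 3.49% (3.05% to 4.0%) met H4K20me3. The share was 7.35% (7.01% to 7.69%) of the 22927 intervals of 2 to under 5 kb. The rise went on in the middle classes, to 16.2% (15.6% to 16.9%) of the 12356 intervals of 5 to under 10 kb and 25.4% (24.0% to 26.9%) of the 3547 intervals of 10 to under 20 kb. At 20 to under 50 kb it was 39.7% (36.7% to 42.7%) of 1031 intervals, and at 50 kb and over 68.1% (60.6% to 74.8%) of 163. The Wilson intervals of neighbouring classes did not overlap.

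A wider interval has more room for an overlap, so the share of length was compared as well. It rose with width too. H4K20me3 covered 3.30% of the length of H3K9me3 intervals under 2 kb, 6.58% at 2 to under 5 kb and 12.9% at 5 to under 10 kb. It covered 17.4% at 10 to under 20 kb, 22.2% at 20 to under 50 kb and 33.8% at 50 kb and over. From the narrowest to the widest class the share of intervals was 19.5 times higher and the share of length 10.2 times higher. The narrowest class was still covered at 2.74 times the density of the rest of the span, and the widest at 28.0 times. The shared length was thus placed unevenly. Intervals under 5 kb were 62.7% of the H3K9me3 list and 32.8% of its length, and held 15.1% of the length with both marks. Those of 10 kb and over were 34.6% of the length and held 53.9%.

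**Figure D1:**
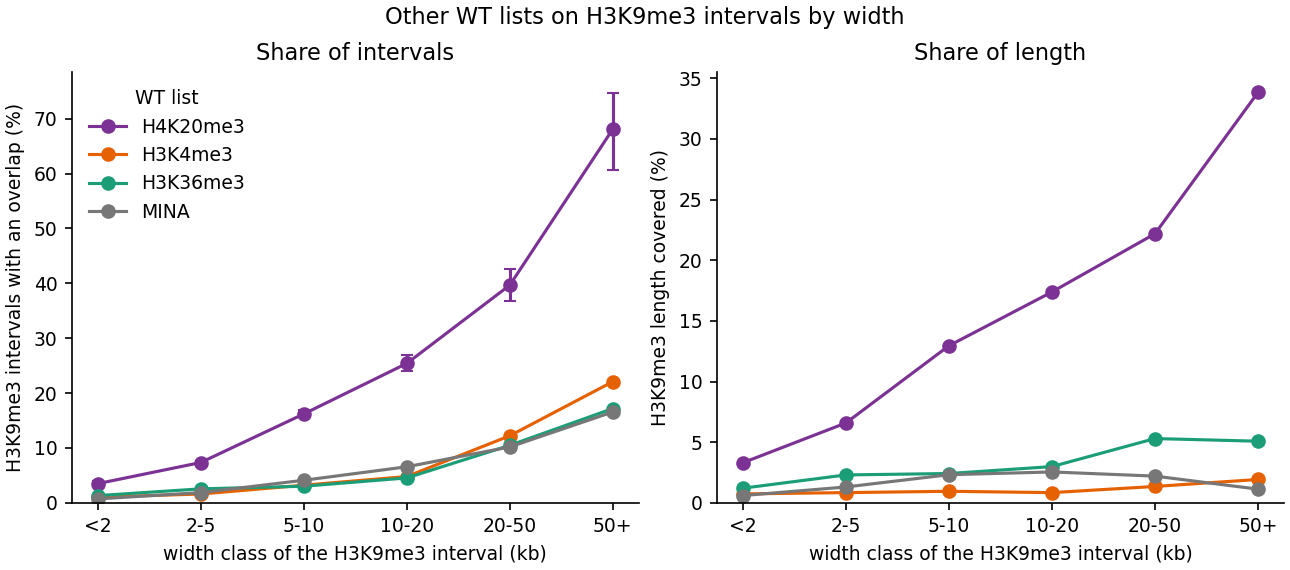
Share of H3K9me3 intervals that overlap another WT list (left, %) and share of H3K9me3 length that the list covers (right, %), by width class of the H3K9me3 interval in kb; points are single lists and bars are 95% Wilson intervals of the H4K20me3 shares. H4K20me3 goes from 3.49% to 68.1% of intervals and from 3.30% to 33.8% of length, while no other list covers more than 5.30% of the length of any class.

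The share of intervals rose with width for the other lists too. The share of H3K9me3 intervals that met H3K4me3 went from 1.04% under 2 kb to 22.1% at 50 kb and over, that with H3K36me3 from 1.31% to 17.2%, and that with MINA from 0.709% to 16.6%. By length these lists stayed low. H3K4me3 covered 0.737% of the narrowest and 1.93% of the widest class, H3K36me3 1.21% and 5.08%, and MINA 0.600% and 1.13%. Each of these values lay under the coverage of the rest of the span by the same list, whereas every class was above it for H4K20me3.

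The trend of coverage with width was seen on nearly all chromosomes, but 2 of them held many of the wide intervals. On 22 of the 23 chromosomes H4K20me3 covered more of the H3K9me3 length in intervals of 20 kb and over than in those under 5 kb. The exception was X, where the single interval of 20 kb and over had none and those under 5 kb were covered at 4.33%. Chromosome 18 had only 2 and chromosome 15 only 3 intervals of 20 kb and over. On chromosome 20 the values were close, with 12.4% against 9.95%. Chromosome 19 held 46 and chromosome 11 held 24 of the 163 intervals of 50 kb and over. Without chromosome 19 the widest class was covered at 30.4% and met H4K20me3 in 60.7% of intervals, and without both it was 29.3% and 62.4%. Over all intervals of 20 kb and over, 43.6% met H4K20me3 and 25.6% of the length was covered. When intervals of each list up to 5 kb apart were joined first, these fell to 27.6% and 13.8%, against 3.94% and 3.81% in the class under 2 kb. Joining brought 2389 intervals into that wide class in place of 1194.

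Seen from H4K20me3, the share that met H3K9me3 rose with its own width, but the share of its length did not follow in steps. Of H4K20me3 intervals under 2 kb 49.9% (44.9% to 54.8%) met H3K9me3, at 5 to under 10 kb 67.4% (65.7% to 69.0%), and at 20 to under 50 kb 80.6% (76.4% to 84.2%). H3K9me3 covered 47.0% of the H4K20me3 length in the narrowest class and between 49.3% and 53.1% in the next 4 classes. It was 66.6% in the 19 intervals of 50 kb and over. Intervals with H3K9me3 had a median width of 6.6 kb and those without 5.0 kb.

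Neither mark was as a rule contained in the other. The overlapping intervals made 5969 pairs. In 2050 of them, 34.3% (33.1% to 35.6%), H4K20me3 lay whole inside the H3K9me3 interval. In 1750 pairs, 29.3% (28.2% to 30.5%), H3K9me3 lay whole inside H4K20me3, and in 2138, 35.8% (34.6% to 37.0%), each reached past the other. Only 31 pairs had the same start and end. Counted by interval, 36.9% (35.6% to 38.2%) of the overlapping H4K20me3 lay inside H3K9me3 and 33.0% (31.7% to 34.2%) of the overlapping H3K9me3 inside H4K20me3. Without chromosome 19 these were 34.2% and 34.3%, so in the lists as deposited the small excess of the first rested on that chromosome. The excess also changed with the processing. With all chromosomes it was 39.4% against 32.6% when intervals were joined over gaps up to 5 kb. With an overlap of at least 50% of the shorter interval it was 38.0% against 34.2%. The H3K9me3 interval was the wider one in 50.9% of pairs, and the median ratio of H4K20me3 to H3K9me3 width was 0.970. By shared length, 39.7% lay in pairs with H4K20me3 inside, 27.4% in pairs with H3K9me3 inside and 32.3% in partial pairs.

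Which mark was the container went with the width of the H3K9me3 interval. Of the 202 pairs with H3K9me3 under 2 kb, 70.8% had it inside H4K20me3 and 1.98% had H4K20me3 inside. At 5 to under 10 kb both directions were close, with 31.2% and 28.2% of 2060 pairs. At 20 to under 50 kb H4K20me3 was the inner one in 68.1% of 680 pairs and H3K9me3 in 2.94%. At 50 kb and over H4K20me3 was inside in 87.7% of 326 pairs and H3K9me3 in none. Part of this order follows from width itself, since a narrow interval has less room to hold another. By H4K20me3 width the order ran the other way up to 50 kb: H4K20me3 was inside in 76.7% of pairs under 2 kb and in 14.1% at 20 to under 50 kb, where H3K9me3 was inside in 54.3%. The 26 pairs with H4K20me3 of 50 kb and over did not continue it, with H4K20me3 inside in 26.9% and H3K9me3 in 38.5%.

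**Figure D2:**
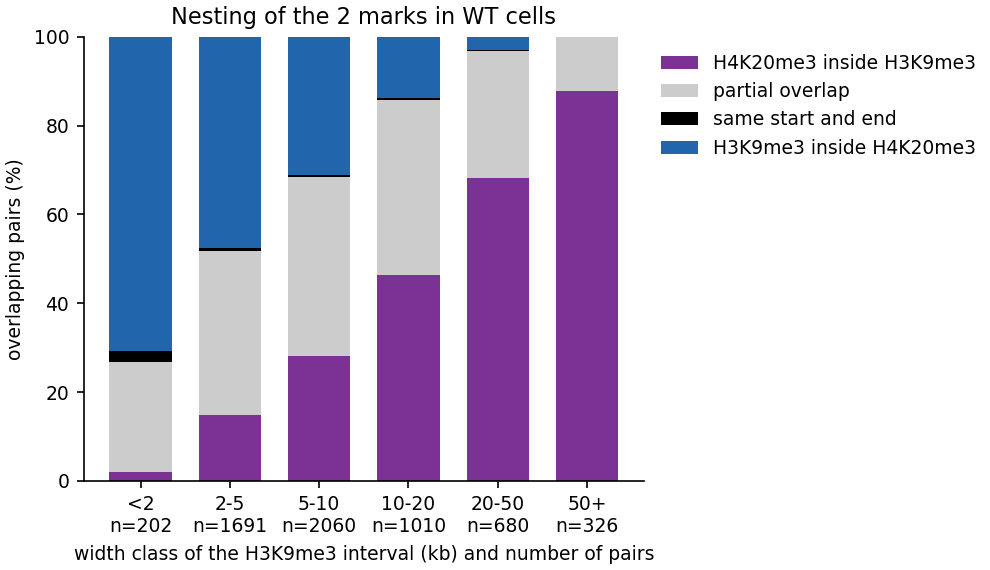
Overlapping pairs of H3K9me3 and H4K20me3 intervals in WT cells (%), split by which contains which, for each width class of the H3K9me3 interval in kb; n is the number of pairs. Pairs with H3K9me3 inside go from 70.8% under 2 kb to none at 50 kb and over, and pairs with H4K20me3 inside from 1.98% to 87.7%.

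Nested intervals took up a fair part of the one around them. An H4K20me3 interval inside H3K9me3 had a median width of 5.0 kb within 12.6 kb, and took a median of 41.8% of that width. Its nearer edge lay a median of 1.0 kb from the H3K9me3 edge and its farther edge 5.0 kb, and 17.8% of these 2050 intervals shared an edge with H3K9me3. H3K9me3 inside H4K20me3 had a median width of 4.6 kb within 9.6 kb, and 22.9% of those 1750 shared an edge. In partial pairs a median of 68.4% of the H4K20me3 width lay on H3K9me3 and H4K20me3 reached 1.8 kb past it. Of all H4K20me3 intervals that met H3K9me3, 82.6% had over 50% of their width on it and 37.5% had all of it.

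Wide H3K9me3 intervals often held several H4K20me3 intervals. Most contacts were one to one, since 93.1% of the overlapping H4K20me3 intervals met 1 H3K9me3 interval and 91.9% of the overlapping H3K9me3 intervals met 1 of H4K20me3. Of the H3K9me3 intervals of 50 kb and over with H4K20me3, however, 80 of 111 met 2 or more, and the largest number was 11. At 20 to under 50 kb it was 178 of 409, and at 2 to under 5 kb 7 of 1684. The median share of an overlapping H3K9me3 interval that H4K20me3 covered fell from 95.3% at 2 to under 5 kb to 52.1% at 20 to under 50 kb and 36.8% at 50 kb and over. These medians are over the intervals that met H4K20me3, and 622 of the 1031 intervals of 20 to under 50 kb met none.

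Within H3K9me3 intervals, H4K20me3 was denser toward the inside than at the edge. In intervals of 20 to under 50 kb it covered 14.7% of the outermost 1 kb and 22.7% of the sequence 9 to 10 kb from the edge. In intervals of 50 kb and over the values were 21.1% and 31.0%. Outside the edge the density was lower, and it declined over several kb. Around intervals of 20 to under 50 kb it was 10.8% in the first 1 kb outside, 7.54% at 2 to 3 kb, 8.02% at 9 to 10 kb and 1.86% at 19 to 20 kb, where only 0.107 Mb of sequence was left. Around intervals of 2 to under 5 kb it was 5.90% in the outermost 1 kb inside, 3.77% in the first 1 kb outside and 1.94% at 3 to 4 kb. Sequence outside was assigned to the nearest H3K9me3 interval, and sequence inside other H3K9me3 intervals was left out.

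**Figure D3:**
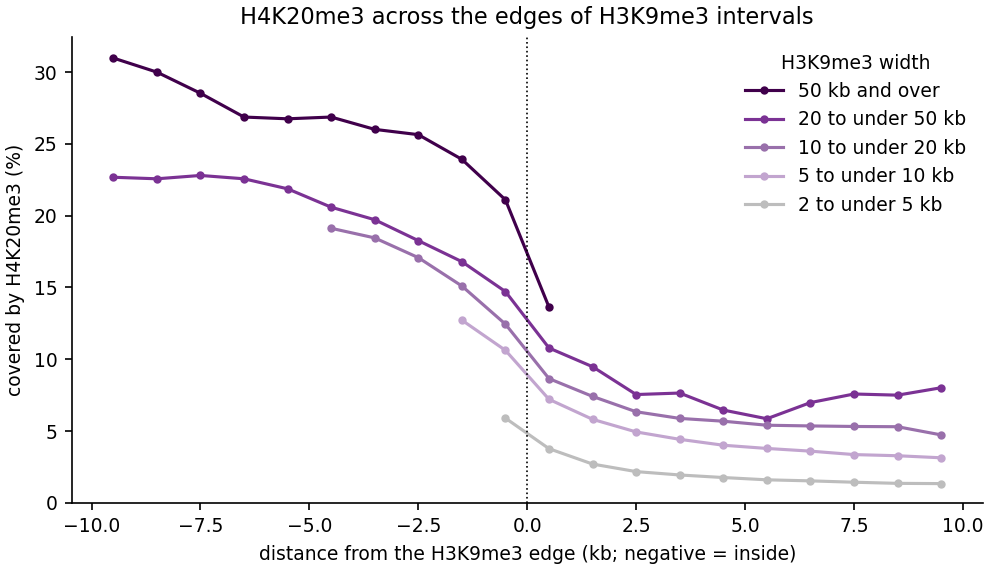
Sequence covered by H4K20me3 (%) in steps of 1 kb by distance from the edge of an H3K9me3 interval (kb, negative inside, positive outside). There is one line per H3K9me3 width class, except the class under 2 kb, which is not drawn. Inside points are shown only to the depth that every interval of the class reaches, and points with under 100 kb of sequence are left out. Every point inside is above every point outside of the same class, and the outermost 1 kb inside is higher the wider the class, with 14.7% just inside and 10.8% just outside intervals of 20 to under 50 kb.

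The 2984 H4K20me3 intervals without H3K9me3 lay nearer to it than other sequence did. Their median distance to the nearest H3K9me3 interval was 19.4 kb (quartiles 6.8 and 55.6 kb, highest 772.8 kb). For sequence outside H3K9me3 as a whole the median was 45.4 kb (13.6 and 123.0 kb). Within 5 kb of H3K9me3 lay 19.8% of these H4K20me3 intervals and 12.5% of the sequence, and within 20 kb 51.0% and 31.9%. Distances of intervals run from their edges and those of sequence from single windows of 200 bp, so wider intervals come out slightly nearer. Intervals of the other lists, measured in the same way, had higher medians than sequence as a whole, but fewer of them lay very far away. The median distance was 49.0 kb for H3K4me3 intervals without H3K9me3, 62.4 kb for H3K36me3, whose intervals were wider, and 51.0 kb for MINA. Within 500 kb lay 98.5% to 98.9% of these lists' intervals and 93.5% of the sequence, beside 99.6% for H4K20me3. When intervals were joined over gaps of up to 5 kb, the median of H4K20me3 was 28.8 kb.

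The closest band held about the same share of these intervals as of sequence, and a larger share than of the other lists' intervals. At 1 kb or less stood 110 of the 2984 intervals, 3.69% (3.07% to 4.42%), beside 3.67% of the sequence. Of the intervals without H3K9me3 in the other lists, 2.51% of H3K4me3, 0.921% of H3K36me3 and 2.22% of MINA lay there. Single windows of sequence also lie in short gaps between H3K9me3 intervals that a wider interval cannot fit, so the 2 measures are unlike. Between 1 and 5 kb it was 16.1% (14.8% to 17.5%) beside 8.83%, between 5 and 10 kb 13.6% (12.5% to 14.9%) beside 7.93%, and between 10 and 50 kb 39.2% (37.5% to 41.0%) beside 32.1%. Beyond 50 kb the order turned, with 13.2% (12.1% to 14.5%) of the intervals at 50 to 100 kb beside 17.7% of the sequence and 13.7% (12.5% to 15.0%) at 100 to 500 kb beside 23.4%. Only 11 intervals lay at 500 to 1000 kb and none farther. Of the 2984 intervals, 44 (1.47%) had H3K9me3 within 5 kb on both sides and 547 on 1 side. Within 50 kb, 1038 (34.8%) had it on both sides and 1131 on 1 side. The matching shares of sequence were not computed. Distance changed little with the width of the H4K20me3 interval, with medians of 24.8 kb under 2 kb, 17.9 kb at 5 to under 10 kb and 16.9 kb at 20 to under 50 kb.

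**Figure D4:**
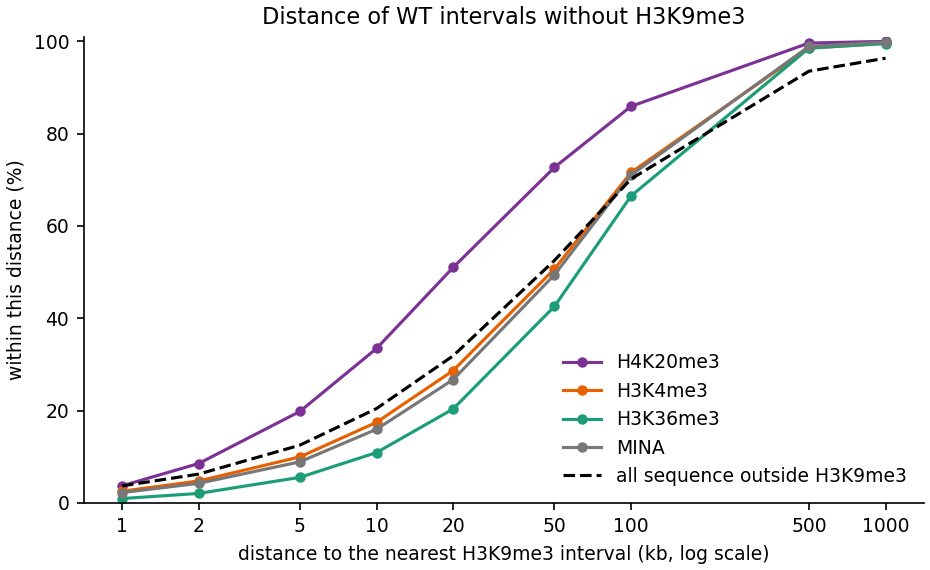
Cumulative share (%) of WT intervals without H3K9me3 that lie within a given distance of the nearest H3K9me3 interval (kb, log axis), for 4 lists, and of all sequence outside H3K9me3 (dashed). The H4K20me3 line is the highest from 2 to 1000 kb, with 51.0% within 20 kb against 31.9% of sequence.

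The H3K9me3 neighbour of such an interval often had H4K20me3 of its own. For H4K20me3 within 5 kb of H3K9me3 the nearest H3K9me3 interval met another H4K20me3 interval in 371 of 591 cases, or 62.8%. At 5 to 50 kb this was 43.6% of 1578 and beyond 50 kb 25.4% of 815, all above the 11.6% of all H3K9me3 intervals. The 2 measures are unlike. Cases are counted per H4K20me3 interval, so regions rich in H4K20me3 weigh more, while the 11.6% counts each H3K9me3 interval once. By chromosome that share ran from 4.08% on 18 to 37.2% on 19. The part of this weighting in the excess was not tested. The nearest H3K9me3 intervals had median widths of 4.8, 4.4 and 4.4 kb.

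H4K20me3 with and without H3K9me3 differed in its overlap with H3K4me3, H3K36me3 and MINA. H3K4me3 was met by 15.9% (15.0% to 16.9%) of the 5555 intervals on H3K9me3 and by 38.4% (36.7% to 40.2%) of the 2984 without it. For MINA it was 14.9% (14.0% to 15.9%) and 31.7% (30.0% to 33.4%), and for H3K36me3 9.92% (9.16% to 10.7%) and 17.1% (15.8% to 18.5%). Intervals without H3K9me3 were narrower, and the order held at equal width. At 5 to under 10 kb H3K4me3 was met by 14.0% (12.5% to 15.5%) of those with H3K9me3 and 39.4% (36.4% to 42.5%) of those without. The shares differed with distance from H3K9me3 as well. Within 5 kb of H3K9me3 30.5% (26.9% to 34.3%) met H3K4me3 and 8.63% (6.62% to 11.2%) met H3K36me3, and farther out 40.4% (38.5% to 42.4%) and 19.2% (17.7% to 20.9%). Of all H4K20me3 intervals, 54.7% met H3K9me3 and not H3K4me3, 10.4% met both, 13.4% met H3K4me3 alone of the pair and 21.5% met neither. None of the other 4 WT lists overlapped 1572 of them, or 18.4%.

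Seen from H3K9me3 the direction was the opposite: intervals with the other mark met H3K4me3 and MINA more often than those without. H3K4me3 was met by 12.7% (11.8% to 13.6%) of H3K9me3 intervals with H4K20me3 and by 1.20% (1.1% to 1.31%) of those without, and MINA by 13.5% (12.6% to 14.4%) and 1.55% (1.43% to 1.67%). By length the shares for H3K4me3 were 3.06% and 0.438%. The first group was wider, with a median of 6.2 kb against 3.8 kb.

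More H4K20me3 intervals on H3K9me3 than off it were found again in the KO cells, whose libraries are separate. H4K20me3 intervals on H3K9me3 were found again in the KO H4K20me3 list in 60.9% (59.6% to 62.1%) of cases, and those without H3K9me3 in 45.1% (43.3% to 46.9%). The background was not the same for both. The KO H4K20me3 list met 29.0% of the WT H3K9me3 intervals without WT H4K20me3, while it covered 5.08% of the span. The part of this background in the difference was not tested. At equal width the share found again was higher on H3K9me3 in the 5 classes under 50 kb, for example 60.9% against 47.7% at 5 to under 10 kb. The Wilson intervals overlapped in the class under 2 kb, with 41.7% (34.9% to 48.7%) against 35.8% (29.3% to 42.7%), and the class of 50 kb and over had only 2 intervals without H3K9me3. For H3K9me3 the direction depended on width. Under 2 kb, 45.5% (38.8% to 52.4%) of intervals with H4K20me3 and 61.4% (60.2% to 62.7%) of those without were found in the KO H3K9me3 list. At 20 to under 50 kb it was 96.8% (94.6% to 98.1%) and 89.1% (86.4% to 91.3%). The KO pair of lists showed the same order by width, from 9.39% of H3K9me3 length covered by H4K20me3 under 2 kb to 72.5% at 50 kb and over. Of the 52 WT H3K9me3 intervals of 50 kb and over without H4K20me3 in WT, 46 (88.5%) met H4K20me3 of KO cells, as did 109 of the 111 with it (98.2%). The KO list of H4K20me3 was the larger one (25318 intervals), and the part that genotype and depth have in these values was not tested.

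The co-marked intervals were unevenly spread over the chromosomes. The share of H4K20me3 length inside H3K9me3 was highest on chromosome 19, at 78.2% of 7.48 Mb, followed by chromosomes 21 (72.4% of 0.790 Mb) and 22 (69.0% of 0.941 Mb). It was lowest on X (36.8% of 0.250 Mb), 20 (38.8% of 2.23 Mb) and 1 (42.5% of 7.42 Mb). Chromosome 19, known for its clusters of KRAB zinc finger genes, also had the largest H3K9me3 share of its span, 28.9%, and held 16.9% of the whole length with both marks. On all 23 chromosomes the H3K9me3 share of H4K20me3 length exceeded the H3K9me3 share of the span, by 2.71 times on chromosome 19 and up to 34.1 times on X, where H3K9me3 covered 1.08% of the span and only 70 H4K20me3 intervals were found. The median ratio was 5.70. Chromosome 19 thus had the highest share and the lowest ratio, and X the lowest share and the highest ratio. The ratio has a ceiling that is lower where H3K9me3 covers more of the span, so it does not rank these chromosomes on equal terms.

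**Figure D5:**
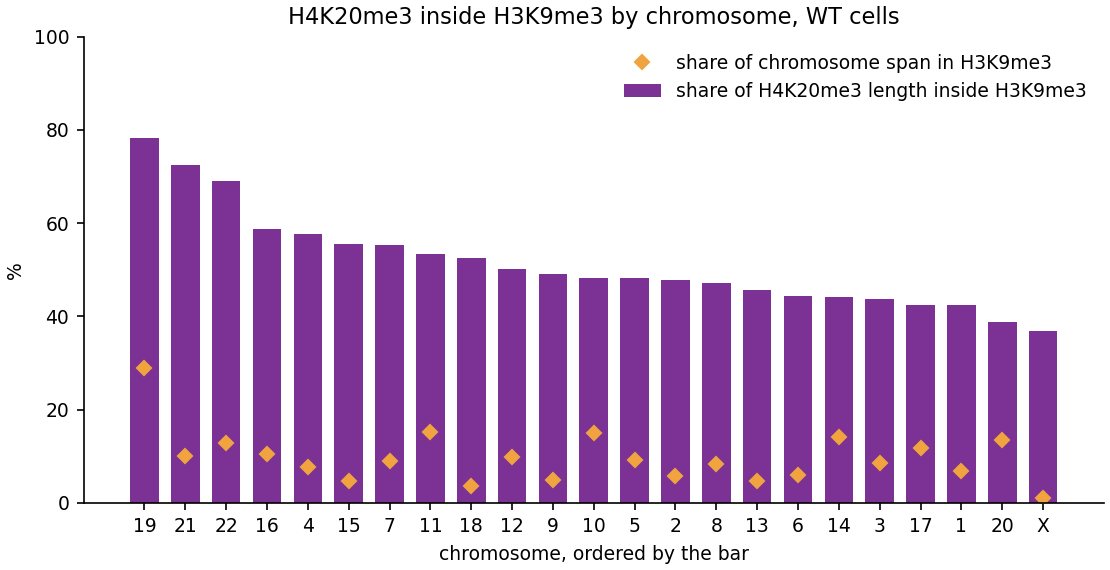
Share of the H4K20me3 length that lies inside H3K9me3 in WT cells (bars, %) and share of the chromosome span in H3K9me3 (diamonds, %), by chromosome in order of the bars. Bars run from 78.2% on chromosome 19 to 36.8% on X and each stands above its diamond.

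The outer 2 Mb of the chromosome spans held more of the co-marked intervals. A span runs between the outermost intervals of any list, so its ends need not be the ends of the chromosome. The outer 2 Mb make up 3.12% of the span. Of the H4K20me3 intervals on H3K9me3 10.7% (9.92% to 11.6%) lay there, against 2.31% (1.83% to 2.92%) of those without H3K9me3. Without chromosomes 11 and 19 the shares were 10.2% and 2.35%. Of the H3K9me3 intervals with H4K20me3 9.14% (8.39% to 9.94%) lay there, and 4.75% (4.54% to 4.96%) of those without.

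The largest single examples were near the ends of chromosomes 11 and 19. Coordinates are 1-based on hg19, and no gene was assigned, since an annotation of that build was not used here. The widest H4K20me3 interval, of 78.2 kb at chr11:134282401-134360600, lay whole inside an H3K9me3 interval of 220.4 kb at chr11:134200201-134420600. That H3K9me3 interval met 6 H4K20me3 intervals, which covered 90.2% of it. The next wide ones followed toward the chromosome end, with 170.0 kb at chr11:134421401-134591400 (9 H4K20me3 intervals, 89.5% covered) and 144.8 kb at chr11:134593601-134738400 (8 intervals, 80.2%). The widest H3K9me3 interval of all, 226.6 kb at chr19:58431401-58658000, met 11 H4K20me3 intervals, which covered 86.3% of it. The remaining one of the 5 widest was 141.4 kb at chr11:133803001-133944400, with 3 intervals and 91.7% covered.

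Besides the 78.2-kb interval, 3 more of the 5 widest H4K20me3 intervals with H3K9me3 lay almost wholly on it. They were at chr19:52560801-52631400 (98.3% on H3K9me3), chr11:133803001-133869800 (100%) and chr19:58663801-58726400 (97.1%). Both on chromosome 19 were also over H3K36me3, on 64.9% and 63.9% of their width. The second widest, 77.2 kb at chr11:76851401-76928600, differed: it had H3K9me3 on 16.1% of its width and MINA on 96.4%, and neither heterochromatin list of KO cells held any of it. The longest unbroken stretches common to 1 interval of each list were 78.2, 66.8, 61.2, 57.8 and 53.2 kb, and each was a whole H4K20me3 interval inside H3K9me3. The third, at chr4:35601-96800, lay near the end of the short arm of chromosome 4, and the fourth was at chr19:58062801-58120600. The other 3 were on chromosome 11, the fifth at chr11:133883801-133937000.

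Wide intervals with only 1 of the marks were listed in the same way. The widest H4K20me3 interval without H3K9me3, 55.8 kb at chr11:12210201-12266000, lay 52.2 kb from H3K9me3 and was wholly on H3K36me3, with MINA on 54.1% of it. The next, 50.8 kb at chr20:48880401-48931200, had MINA on 98.0% of its width. The others were at chr11:76432001-76481400, chr20:33866401-33907600 and chr8:126601401-126642200. All 5 met MINA and 4 of 5 met H3K4me3, close to the 4 of 5 for each among the 5 widest with H3K9me3, and 70.5% of all H4K20me3 intervals of 20 to under 50 kb without H3K9me3 met H3K4me3. None of the 5 met H3K9me3 of KO cells, which 4 of the 5 widest with H3K9me3 did. Both counts were near the shares of all H4K20me3 intervals, 5.83% without H3K9me3 and 74.1% with it. The widest H3K9me3 interval without H4K20me3, 107.8 kb at chr8:139842801-139950600, lay 129.8 kb from the nearest H4K20me3, and the other 4, of 83.0 to 90.0 kb, were at chr11:70447801-70537800, chr11:115504601-115593200, chr11:132862401-132945600 and chr17:31686001-31769000. None of the 5 met H3K4me3 or H3K36me3. That was near the shares of all H3K9me3 intervals without H4K20me3, of which 1.20% met H3K4me3 and 2.22% met H3K36me3. Among the 5, H4K20me3 of KO cells covered 96.3% and 93.5% of those on chromosome 8 and at chr11:115504601-115593200, and none of that at chr11:70447801-70537800. Farthest from H3K9me3 stood H4K20me3 intervals at chr2:89888801-89890800 (772.8 kb away), chr17:42621201-42630800 (683.6 kb) and chr17:42579401-42586600 (641.8 kb), and the pair on chromosome 17 met H3K4me3 and MINA.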

How the data were processed

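ChIP-seq intervals of MDA-MB-231 cells were analysed. BWA, SICER version 1.1 and the build hg19 are named in the submitters' processing notes. The deposited values are interval starts and ends on a 200-bp grid, with neighbours in a list at least 800 bp apart. How the caller was set, and whether it used the input or scaled for depth, is not given in the sources used here. Neither the input library nor the merged list of 92233 regions was used. Overlap of at least 1 bp, nesting by exact starts and ends, and gaps between edges were computed with Python 3.11.15 and numpy 2.4.6, and Wilson intervals with scipy 1.17.1. Both overlap counts were the same with bedtools 2.31.1, and the functions, tested on simulated data, made 0 errors on 2000 intervals. With 1 library per antibody and genotype no test was run, and depth is unknown. The comparison and the classes were chosen with earlier results of these data known. Regions were named by rank: the 5 widest intervals of each mark with and without the other, the 5 longest common stretches, the 3 farthest intervals, and the 3 chromosomes at each end of the order of shares. Alternatives were a stricter overlap, joined intervals, other sets of chromosomes and a minimum width.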

Additional observations from a re-analysis of the deposited data

How the results depend on the processing

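H3K9me3 of 20 kb and over stayed above the class under 2 kb, in the share with H4K20me3 and in the covered length, under each alternative that gave both. With autosomes only, or with intervals of at least 2 kb, all 9 main values stayed inside a 95% interval of the reported value, taken with the number of intervals as n also for shares of length. With an overlap of at least 50% of the shorter interval, the share of H4K20me3 intervals on H3K9me3 was 63.2%. The median distance of the other 3141 was 17.8 kb, but these include intervals with a shorter overlap, which were entered with no distance. That median is therefore not one of non-overlapping intervals only. With intervals joined over gaps up to 5 kb, the share of H4K20me3 on H3K9me3 was 67.8% by interval and 52.8% by length. H3K9me3 of 20 kb and over then met H4K20me3 in 27.6% of intervals and 13.8% of length, and the class under 2 kb was covered at 3.81%. Of the overlapping H4K20me3 39.4% was nested in H3K9me3, and of the overlapping H3K9me3 32.6% in H4K20me3. The median distance was 28.8 kb. Joining makes wide intervals of narrow ones and removes the gaps. Without chromosome 19, H4K20me3 lay on H3K9me3 in 63.1% of intervals and 48.3% of length, the class of 20 kb and over met it in 36.2% of intervals and 21.1% of length, 34.2% of the overlapping H4K20me3 and 34.3% of the overlapping H3K9me3 was nested in the other mark. Without chromosomes 11 and 19, chosen after seeing the data, the first 5 of these were 62.7%, 47.8%, 36%, 20.3% and 34.0%. With no replicates and an unknown depth, a mark below the calling threshold cannot be told apart from an absent one.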
